A study of Mus musculus with 18 samples.

Results

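The cytosolic ribosomal proteins are the protein subunits of the ribosome that works outside mitochondria. Members were all genes whose mouse symbol begins with Rpl or Rps and a number, with Rplp0 to Rplp2 and Rpsa, and that are annotated as protein-coding. Of 49315 identifiers in the count tables, 372 symbols matched. From these, 10 S6 kinase genes, 270 genes not annotated as protein-coding and 6 with a pseudogene suffix were left out, and 86 members remained. They comprised 46 proteins of the large subunit, 31 of the small subunit (77 core members together), 8 paralogues (Rpl3l, Rpl10l, Rpl22l1, Rpl39l, Rpl36al, Rpl7l1, Rps27l and Rps27rt) and Rps19bp1, which binds a ribosomal protein and is not part of the ribosome.

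The core proteins assemble with ribosomal RNA into the small subunit, which reads the mRNA, and the large subunit, which joins amino acids, and they are needed in matched amounts. Most of their mRNAs begin at a cytosine followed by an unbroken run of pyrimidines, the 5' terminal oligopyrimidine (TOP) tract, through which the mTOR pathway and LARP1 control their translation. A few members have paralogues, among which Rpl3l is known as a muscle form that takes the place of Rpl3 in mature heart and skeletal muscle, while Rpl10l and Rpl39l are known from the testis.

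The hearts came from wild-type mouse embryos of strain C57BL/6, pooled over males and females, with 3 RNA sequencing libraries for E9.5, 4 for E10.5, 4 for E12.5, 3 for E14.5 and 4 for E16.5. The 18 libraries held 30744015 to 45646538 counts each. No label ties the libraries to different litters, and p-values therefore reflect no more than how these libraries vary, which can be technical. In these whole hearts, fewer cells of a type and less RNA per cell cannot be told apart.

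All 7 heart muscle markers examined (Tnnt2, Myh6, Myh7, Actn2, Ttn, Nkx2-5 and Ryr2) were present at every stage, with stage means between 218 and 9394 CPM (counts scaled to the library size after TMM). Their levels moved: the 7 summed to 20495 to 26811 CPM in E16.5 hearts, against 15095 to 19247 CPM in E9.5 hearts, and 3 rose, 2 fell and 2 did not pass. Tnnt2 averaged 9394 CPM in E16.5 hearts and 3479 CPM in E9.5 hearts, and Myh6 averaged 2912 CPM in E16.5 hearts and 5802 CPM in E9.5 hearts. Of 5 fibroblast markers 4 rose between these stages and 1 did not pass, and their sum was 3129 to 3793 CPM in E16.5 hearts, against 199 to 264 CPM in E9.5 hearts. Col1a1 averaged 1416 CPM in E16.5 hearts and 36.5 CPM in E9.5 hearts. Of 4 endothelial markers 3 rose and 1 fell, with sums of 741 to 764 CPM in E16.5 hearts, against 506 to 624 CPM in E9.5 hearts. None of these markers was at 0 in any library. In 5 libraries (E9.5 replicates 2 and 3, E10.5 replicates 1 and 2, E12.5 replicate 4) the summed level of 8 macrophage-type transcripts was 0.582 to 2.75 CPM (here on library totals without TMM), against 341 to 689 CPM in the other 13. The set high in them holds 1 E9.5 library and the low set 1 E12.5 library. Fits within a set that use such a single library take its spread from the other stages of the set. E12.5 replicate 3 stood apart in another way: it was the highest library of its stage for all 77 core members, with a median excess of 0.31 (log2) over the stage mean. E10.5 replicate 2 was the lowest of its stage for 75 of 77, E16.5 replicate 2 for 71 of 77 and E14.5 replicate 1 for 57 of 77. E9.5 replicate 1 was the highest of its stage for 60 of 77 and E16.5 replicate 4 for 59 of 77. The part of these differences in the comparisons was not tested beyond the values given with them.

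The pyrimidine tract could be looked for in the 57 core members, of 77, that have a promoter sequence in RefSeq (GRCm38.p6; 66 of all 86 members have one). A run of at least 8 pyrimidines (C or T) on the gene's strand, between 30 bases before and 50 bases after the annotated start, was present in 45 of 57 (78.9%), against 32.3% of 27025 genes. On the opposite strand the share was 15.8%, against 35.2% of all genes. The letters CCGGAAG, the core of ETS-type sites, stood on either strand in 42.1% of core promoters (250 bases before to 50 after the start) and in 9.93% of all promoters. AAGATGG, a YY1-type motif, stood in 15.8% and 7.28%. TATAAA in the 50 bases before the start stood in none of the 57 and in 3.15% of all genes. These are matches of letters and not measured sites.

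Windows of 30 bases are shown for members that the results below turn on, 5' to 3', with the pyrimidine run in capitals. A run could lie anywhere in the stretch searched and is not shown to be a TOP tract. Those of Rpl4, Rps23, Rpl36al and Rpl3l lie after the annotated start, and that of Rps27l lies before it. The run of Rpl14 spans the start, and that of Rpl22l1 begins just after it. Rpl4, Rpl14, Rps23 and Rpl6 lay among the members with the clearest decline. Rpl36a is set beside its paralogue Rpl36al, Rps27 beside Rps27l, and Rpl22l1 and Rpl3l are paralogues of Rpl22 and Rpl3. The positions are chr9:64173405-64173434 (plus strand) for Rpl4, chr9:120571501-120571530 (plus strand) for Rpl14, chr13:90923142-90923171 (plus strand) for Rps23 and chr5:121204521-121204550 (plus strand) for Rpl6. They are chr12:69184020-69184049 (minus strand) for Rpl36al, chrX:134585672-134585701 (plus strand) for Rpl36a, chr9:66946053-66946082 (plus strand) for Rps27l and chr3:90213632-90213661 (minus strand) for Rps27. They are chr3:28805499-28805528 (plus strand) for Rpl22l1 and chr17:24727846-24727875 (plus strand) for Rpl3l.
Rpl4: gagcgtggCCTTCTCCTCTCCCCgtcatgg
Rpl14: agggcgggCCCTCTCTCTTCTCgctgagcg
Rps23: tgggtccttcctgcaCCTCCTCTCTCTTTC
Rpl6: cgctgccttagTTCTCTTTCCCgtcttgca
Rpl36al: gctctgttcgTCCCTTTCCTgttcggcgcg
Rpl36a: cggctctagCCTCTCTCTTTCCgagctgct
Rps27l: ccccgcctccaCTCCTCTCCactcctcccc
Rps27: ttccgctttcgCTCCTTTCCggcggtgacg
Rpl22l1: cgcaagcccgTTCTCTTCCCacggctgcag
Rpl3l: tggtggggaggCCCCTTCCTaacctgcagg
The run of Rpl4 holds 15 pyrimidines and that of Rpl14 holds 14, while the run of Rps27l and of Rps27 holds 9. That of Rps23 holds at least 15, as it reaches the last base searched and may go on beyond it. In Rpl36al the run holds 10 and in Rpl36a 13.

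As a group, the members took 3.54 to 4.92% of the counts of a library. They held 4.46 ± 0.362% in E9.5 hearts (SD, n = 3), 4.10 ± 0.356% in E10.5 hearts (n = 4), 4.09 ± 0.568% in E12.5 hearts (n = 4), 3.87 ± 0.306% in E14.5 hearts (n = 3) and 3.84 ± 0.248% in E16.5 hearts (n = 4). The libraries of E16.5 lay between 3.57 and 4.05% and those of E9.5 between 4.16 and 4.86%, without overlap. That difference of -0.62 percentage points had p = 0.0571 by an exact two-sided permutation test, the smallest p that 4 against 3 libraries allow, and 0.286 adjusted over 5 comparisons. Between neighbouring stages the exact permutation p lay between 0.343 and 1. Among the libraries high in macrophage-type transcripts, the E16.5 mean was 3.84% (n = 4) and the 1 such library at E9.5 held 4.86%. With mitochondrially encoded and globin counts taken out of the totals, E16.5 had 4.13 ± 0.289% and E9.5 had 4.59 ± 0.388%, and the stages overlapped, with 2 E16.5 libraries above the lowest E9.5 library, which held 4.27%. Mitochondrially encoded genes made up 5.56 ± 0.740% of counts at E16.5 and 2.20 ± 0.168% at E9.5.

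**Figure D1:**
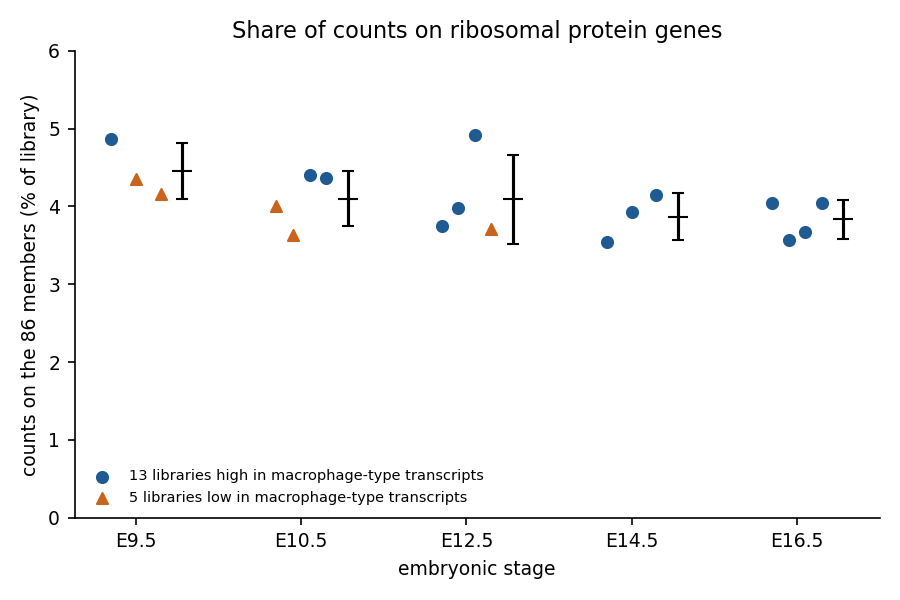
Percent of each library's counts that fell on the 86 members (vertical axis, from 0) by embryonic stage (horizontal axis); each point is a library, circles and triangles separate the 13 libraries high and the 5 low in macrophage-type transcripts, and bars give the stage mean ± SD. The E12.5 library at 4.92% and the E9.5 library at 4.86% lie highest, and neighbouring stages overlap.

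The balance of the subunits moved little. Counts on the 31 small subunit genes were 0.697 to 0.724 times those on the 46 large subunit genes across all 18 libraries. The stage means lay between 0.704 and 0.717.

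Per kilobase of principal mRNA, core members spanned 73.8 to 1722 CPM, with a median of 620 CPM. The highest were Rps2, at the entrance of the mRNA channel, with 1722 CPM per kilobase, Rplp1, an acidic protein of the stalk, with 1574, and Rps14 with 1360. Rps14 ranked 24 instead of 3 when the length was taken over all annotated exons. The lowest core members were Rps20 with 73.8, whose listed mRNA is 3706 bases long, Rpl24 with 197 and Rpl37 with 231. Among paralogues, Rpl36al had 299.9 CPM per kilobase, Rpl22l1 176, Rps27l 141, Rpl7l1 101 and Rps27rt 8.63. Rpl3l had 0.659, and Rpl39l and Rpl10l had 0.255 and 0.0168.

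Across the 5 stages each core member kept a narrow range. The highest stage mean was 1.06 to 1.81 times the lowest, with a median of 1.31, and for 70 of 77 the ratio was under 1.5. The highest stage was E9.5 for 49, E16.5 for 19, E12.5 for 8 and E14.5 for 1. The lowest was E14.5 for 44, E10.5 for 21, E16.5 for 11 and E9.5 for 1, which was Rpl13a (named after its values were seen). The median of the 77, as log2 over their own E9.5 mean, was -0.15 in E10.5 hearts, -0.11 in E12.5 hearts, -0.31 in E14.5 hearts and -0.21 in E16.5 hearts. The low point at E14.5 leans on replicate 1, the lowest of its stage for 57 of 77. Without that library, the median log2 fold change of the 84 members tested was -0.09 instead of -0.17 between E14.5 and E12.5. Between E16.5 and E14.5 it was 0.04 instead of 0.12. Of the 84 members that passed the filter on low counts (all but Rpl10l and Rpl39l), 31 differed among the stages by an edgeR F test, against 71.7% of the 18885 genes tested.

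**Figure D2:**
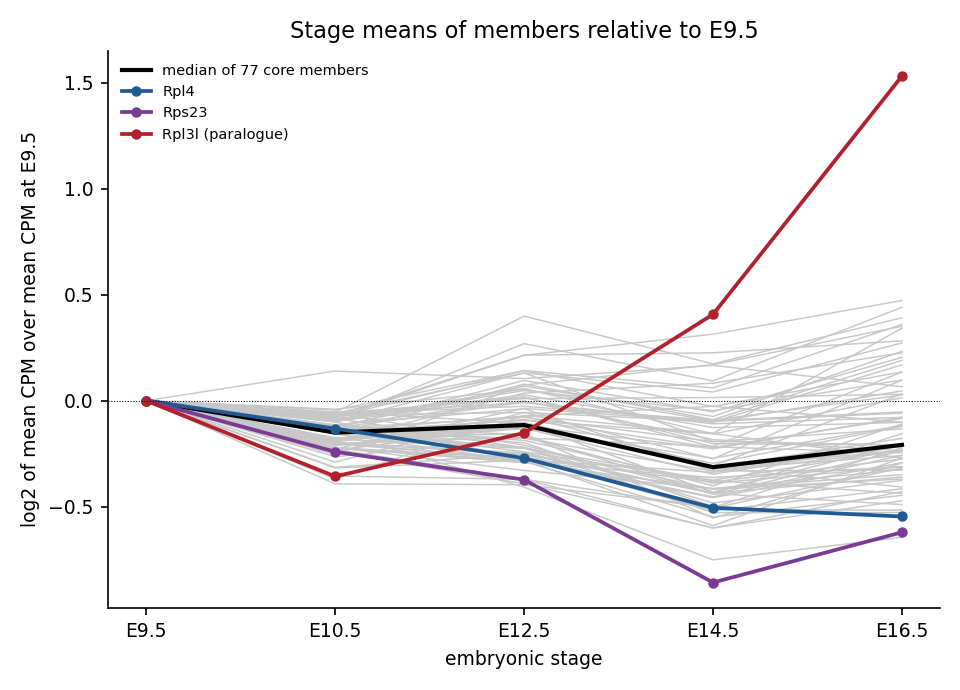
Stage mean CPM of each member over its own E9.5 mean (log2, vertical axis) by embryonic stage (horizontal axis); grey lines are the 77 core members, the black line their median, and coloured lines Rpl4 and Rps23 of the core and the paralogue Rpl3l. The median lies at -0.31 at E14.5 and -0.21 at E16.5, with Rps23 below it and Rpl3l above it at both stages.

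Between E16.5 and E9.5, 28 members fell, 2 rose and 54 did not pass. In all, 64.9% of the 18885 genes passed (32.1% higher, 32.8% lower), so the members' share of falls, 33.3%, was near that of all genes in this model, and their share of rises was 2.38%. The changes were small: the median absolute log2 fold change was 0.24 for members and 0.62 for all genes, and 7 members (8.33%) reached 0.5, against 58.0% of all genes. Their median log2 fold change was -0.21, against -0.01 for all genes. The falls comprised 17 large subunit, 9 small subunit and 2 paralogue genes. Among libraries high in macrophage-type transcripts, 32 of 85 fell and 1 rose, with a median of -0.31 (37.6% falls, against 24.6% of all genes in that fit), in a fit with 1 E9.5 library. With a term for the 5 libraries low in those transcripts in the model, 47 of 84 fell and 1 rose, so the falls were 56.0% of members and 31.1% of all genes. Without E9.5 replicate 1, 22 fell (26.2%, against 32.0% of all genes) and 5 rose (5.95%, against 33.6%), and the median was -0.11.

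Rpl14, a protein on the solvent side of the large subunit, had the most negative fold change. It had 410.4, 376, 379 and 417 CPM in E16.5 hearts, against 683, 588 and 584 CPM in E9.5 hearts. Every E16.5 library lay below every E9.5 library (log2 fold change -0.64 ± 0.11 (SE), edgeR adjusted p = 4.66e-05). Rps23, a small subunit protein at the decoding centre, had 322, 292, 295 and 328 CPM in E16.5 hearts and 456, 494 and 477 CPM in E9.5 hearts, again without overlap (log2 fold change -0.62 ± 0.12 (SE), edgeR adjusted p = 9.94e-05).

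Rpl4, which lines the peptide exit tunnel, had the smallest p among the falls. It had 957, 880.2, 957 and 1008 CPM in E16.5 hearts, against 1369.6, 1407 and 1388 CPM in E9.5 hearts. The E9.5 libraries lay above those of all other stages (log2 fold change -0.55 ± 0.07 (SE), edgeR adjusted p = 8.18e-07). Rpl7, a large subunit protein that contacts ribosomal RNA, had 578, 490.3, 549 and 563 CPM in E16.5 hearts and 837, 775 and 776 CPM in E9.5 hearts, without overlap (log2 fold change -0.55 ± 0.08 (SE), edgeR adjusted p = 7.44e-06). Rpl5, which binds the 5S ribosomal RNA together with Rpl11, also fell (-0.53 ± 0.08), as did Rps6, the small subunit protein phosphorylated by S6 kinase (-0.52 ± 0.09), and Rpl3, near the peptidyl transferase centre (-0.42 ± 0.08; log2 ± SE). Of Rpl5, 24.3% of exon bases overlap Fam69a on the opposite strand, and the strand setting of the counting is not given. Rps20 fell by 0.30 (edgeR adjusted p = 0.0443), a call lost in 10 alternative fits, RLE scaling, DESeq2 and no filter among them.

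Rpl28, a large subunit protein found in eukaryotic ribosomes, had 734, 641, 648 and 817 CPM in E16.5 hearts, against 492, 608 and 559.7 CPM in E9.5 hearts. Its log2 fold change was 0.36 ± 0.18 (SE) and did not pass (edgeR adjusted p = 0.0914), although its libraries did not overlap. It passed with DESeq2 (adjusted p = 0.0433) and with these stages alone in the model (edgeR adjusted p = 0.0122).

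**Figure D3:**
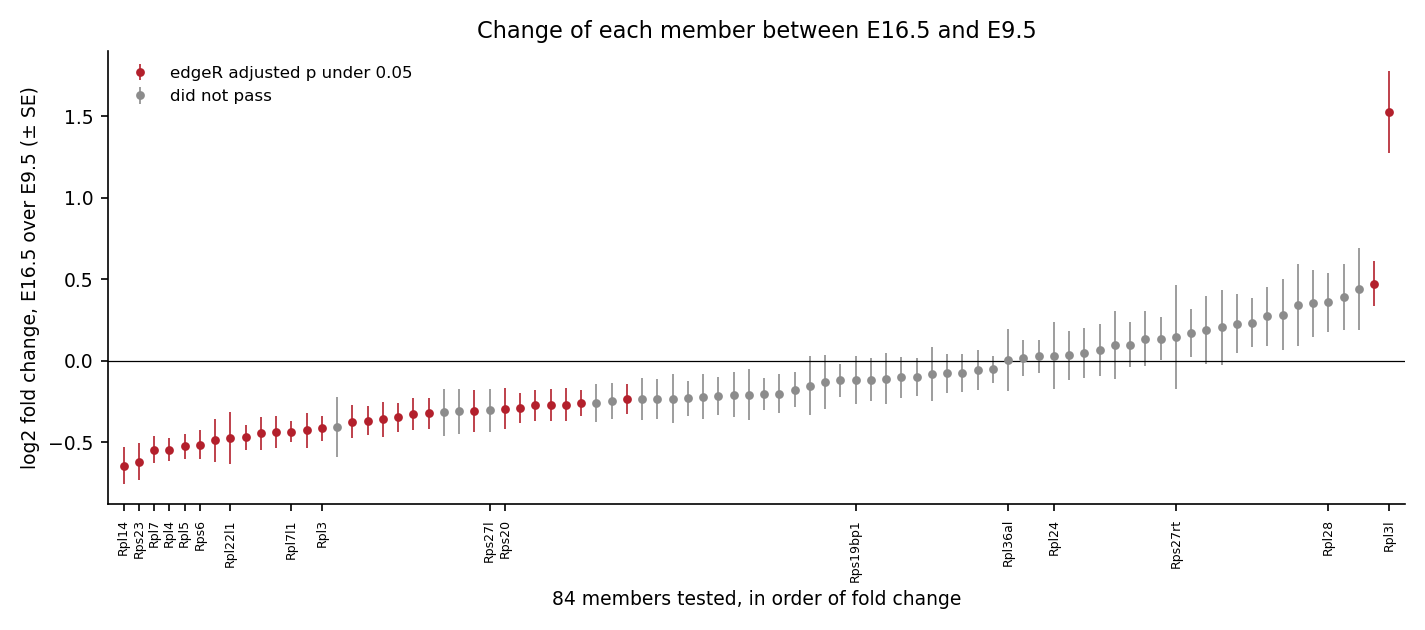
log2 fold change of E16.5 over E9.5 (vertical axis, ± SE) for the 84 members tested, in order of fold change (horizontal axis, with members described in the text labelled); red points passed an edgeR adjusted p under 0.05 and grey points did not. Most red points lie below 0, from Rpl14 at -0.64, and Rpl3l at 1.52 lies apart from the rest.

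Rpl24, a large subunit protein, shows how far a library can decide a value. It had 149.8, 122, 132 and 141 CPM in E16.5 hearts, against 193, 103 and 103 CPM in E9.5 hearts. The E9.5 library at 193 CPM is the 1 of its stage high in macrophage-type transcripts, and E16.5 lies between it and the other 2. The log2 fold change was 0.03 ± 0.21 (SE) over all libraries, -0.50 against that library alone, within the set high in those transcripts (edgeR adjusted p = 0.00678), and 0.41 without E9.5 replicate 1 (edgeR adjusted p = 0.0395). Of its exon bases, 47.0% overlap Gm28037 on the same strand, so its counts are uncertain.

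Step by step, few members passed between neighbouring stages. Between E10.5 and E9.5, 0 rose and 2 fell, against 10.6 and 7.62% of all genes (18.2% in either direction). By edgeR, 12 of 84 members and 5709 of 18885 genes had an unadjusted p under 0.05. Of the members, 81 had a negative log2 fold change, and the median was -0.15. Rpl19, which forms a bridge between the subunits, fell to 392, 344, 422 and 431 CPM in E10.5 hearts, against 506, 495 and 484 CPM in E9.5 hearts (log2 fold change -0.32 ± 0.10 (SE), edgeR adjusted p = 0.0386). Rpl6, a large subunit protein, fell to 718, 705, 788 and 826 CPM in E10.5 hearts, against 908, 889 and 895 CPM in E9.5 hearts (log2 fold change -0.24 ± 0.08 (SE), edgeR adjusted p = 0.0392). Neither overlapped between the stages. DESeq2 called 6 falls and 0 rises, and limma-voom 2 and 0. Over all genes DESeq2 called 9.53% lower and 11.6% higher, and limma-voom 7.9 and 10.1%. Both edgeR calls were lost on leaving out each of the E9.5 libraries in turn or E10.5 replicate 1 or 2. Among the libraries high in macrophage-type transcripts, with 2 of E10.5 and 1 of E9.5, 0 of 85 passed, against 4.93% higher and 1.18% lower of all genes; with an arm of 1 library this says little about the calls. Without E10.5 replicate 3, 4 members fell (4.76%, against 7.02% of all genes). Within the libraries low in those transcripts, 43 fell and 2 rose, with a median of -0.19, against 15.5% lower and 19.3% higher of all genes in that fit (2 libraries of each stage).
Rpl18, a large subunit protein, did not pass (-0.39 ± 0.14 SE, edgeR adjusted p = 0.0572), and had -0.47 without E10.5 replicate 3 (edgeR adjusted p = 0.0296). The members with the smallest p among positive values were Rpl13a (0.14 ± 0.16), Rpl36al (0.03 ± 0.19) and Rpl22l1 (0.00 ± 0.16; log2 ± SE), and none passed. Without E9.5 replicate 1, Rpl22l1 had 0.34 (edgeR adjusted p = 0.0483).

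Between E12.5 and E10.5, when 38% of all genes passed (20% higher, 18.1% lower), 1 member fell, 0 rose and 83 did not pass. The members' median was 0.05, and by edgeR 6 members and 8763 of 18885 genes had an unadjusted p under 0.05. DESeq2 called 1 rise and 1 fall, and limma-voom 0 and 2. Over all genes DESeq2 called 21.4% higher and 18.6% lower, and limma-voom 20.7 and 19.0%. The edgeR fall was Rpl7l1, related to a yeast assembly factor of the large subunit. It had 114, 119.6, 124 and 130.1 CPM in E12.5 hearts, against 152, 142, 143 and 143 CPM in E10.5 hearts, without overlap (log2 fold change -0.25 ± 0.06 (SE), edgeR adjusted p = 0.00209). Within the libraries low in macrophage-type transcripts, where E12.5 has 1 library, its edgeR adjusted p was 0.0747. Rpl39, which lies at the tunnel exit, had 0.45 ± 0.18 and Rpl31, also near the exit, 0.33 ± 0.19 (log2 ± SE), and neither passed. Rpl14 (-0.26 ± 0.10) and Rpl3 (-0.17 ± 0.07) did not pass either. With library totals both passed (edgeR adjusted p = 0.0289 and 0.0217). Rpl14 also passed with limma-voom (adjusted p = 0.0417) and with the term for the 5 libraries (edgeR adjusted p = 0.00506). Within the libraries high in macrophage-type transcripts it had -0.34 (edgeR adjusted p = 0.0405), and within the low ones -0.27. Without E12.5 replicate 3, 9 members fell, Rpl14 and Rpl3 among them (10.7%, while 2821 of 18840 genes fell), 0 rose, and the median was -0.09. With E10.5 replicate 2 left out 2 fell, Rpl14 among them (2.38%, against 15.1% of all genes). With E12.5 replicate 4 left out 1 fell (1.19%, against 18.4% of all genes) and 2 rose (2.38%, against 19.7%). Rpl39 was among the rises (0.56, edgeR adjusted p = 0.0274).

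Between E14.5 and E12.5, 8 members fell and 0 rose, against 8.55 and 6.29% of all genes (14.8% in either direction), and the median was -0.17. By edgeR, 20 of 84 members and 5197 of 18885 genes had an unadjusted p under 0.05. DESeq2 called 11 falls and 0 rises, and limma-voom 9 and 0. Over all genes DESeq2 called 10.1% lower and 7.78% higher, and limma-voom 8.95 and 7.37%. The falls by edgeR were Rps23, Rps20, Rpl14, Rpl23a, Rpl5, Rpl7, Rpl3 and Rpl4. Of Rpl23a, 59.7% of exon bases overlap Tlcd1 on the opposite strand, so its counts are uncertain. Rps23 had 204, 285 and 299 CPM in E14.5 hearts, against 339.9, 329, 451 and 349 CPM in E12.5 hearts (log2 fold change -0.49 ± 0.12 (SE), edgeR adjusted p = 0.00765). E14.5 replicate 1 was the lowest and E12.5 replicate 3 the highest, and the stages did not overlap. Rpl5 had -0.31 ± 0.08 (edgeR adjusted p = 0.0125) and Rpl7 -0.30 ± 0.08 (edgeR adjusted p = 0.0172). The count of falls was 2 without E12.5 replicate 3 (2.38%, against 7.71% of all genes) and 3 without E14.5 replicate 1 (3.57%, against 8.03%). It was 2 without E14.5 replicate 2 (2.38%, against 5.48%) and 5 without E14.5 replicate 3 (5.95%, against 5.25%). It was 0 when the model held these 2 stages alone, where 6.88% of all genes fell. Among libraries high in macrophage-type transcripts it was 17 of 85 (20.0%, against 7.85% of all genes in that fit). With library totals 2 members fell and 0 rose, and over all genes 1701 rose and 1021 fell, against 1187 and 1614 with TMM. Among positive values, Rpl3l (0.54 ± 0.25) and Rps19bp1 (0.24 ± 0.14) were among those with the smallest p, and neither passed.

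Between E16.5 and E14.5, 2 members rose and 0 fell, against 10.1 and 8.74% of all genes (18.9% in either direction), and the median was 0.12. By edgeR, 5 of 84 members and 5997 of 18885 genes had an unadjusted p under 0.05. DESeq2 and limma-voom each called 2 rises and 0 falls. Over all genes DESeq2 called 12.6% higher and 9.04% lower, and limma-voom 11.4 and 8.56%. Rpl3l rose (log2 fold change 1.13 ± 0.24 (SE), edgeR adjusted p = 0.00268). Rpl19 rose to 416, 373, 391 and 464 CPM in E16.5 hearts, against 304, 326 and 357 CPM in E14.5 hearts, without overlap (log2 fold change 0.32 ± 0.10 (SE), edgeR adjusted p = 0.0381). The Rpl19 call was lost without E14.5 replicate 1 or 2 or E16.5 replicate 1 or 4, and with library totals in place of TMM. With library totals the median of all genes was -0.15, against -0.02 with TMM, and that of the members was -0.01, so the sign of their median depended on the scaling. Relative to all genes it was 0.14 under either. With library totals 1 member rose and 1 fell, and over all genes 1222 rose and 3775 fell, against 1911 and 1651 with TMM. Without E14.5 replicate 3, 5 members rose (5.95%, against 10.2% of all genes). The count was 1 (1.19%) without E14.5 replicate 1 or 2 or E16.5 replicate 1 or 4. In the same order, 6.39, 6.3, 8.31 and 7.81% of all genes rose. Rpl23a had 0.23 ± 0.10 and did not pass, except without E14.5 replicate 3 (0.32, edgeR adjusted p = 0.0412). Rpl10 (-0.12 ± 0.10) and Rpl13a (-0.10 ± 0.16) were among those with the smallest p of the negative values and did not pass.

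Longer core mRNAs had lower fold changes between E16.5 and E9.5, which did not hold at every step. The 77 were split at 729 bases, the median length of the principal mRNA, a split made after the values were seen and given with no test. Between E16.5 and E9.5 the 38 shorter ones had a median log2 fold change of -0.10, with 7 falls and 0 rises, and the 39 others a median of -0.24, with 19 falls and 1 rise. Across the 77 genes, which share libraries, Pearson's r between fold change and log2 length was -0.42 and Spearman's rho -0.40. Spearman's rho with GC content was 0.29. By step, rho with length was 0.13 between E10.5 and E9.5, -0.47 between E12.5 and E10.5, -0.21 between E14.5 and E12.5 and -0.26 between E16.5 and E14.5, and rho with GC content was -0.42, 0.19, 0.31 and 0.42 in the same order. Between E10.5 and E9.5 the shorter and the other genes had the same median, -0.15. Between E16.5 and E9.5 the genes tested with a protein-coding mRNA of at most 3706 bases, the longest of the core, showed the same order. Their median was 0.39 for the 544 shorter than 729 bases and 0.07 for the 9864 others. Within libraries, the log2 ratio of summed counts of short over long core genes averaged -0.81 ± 0.029 at E16.5 (SD, n = 4) and -0.98 ± 0.040 at E9.5 (SD, n = 3). At E14.5 replicate 1 stood at -1.04, against -0.75 and -0.79 in the other libraries of that stage. The part of fragment size or RNA quality in this was not tested.

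**Figure D4:**
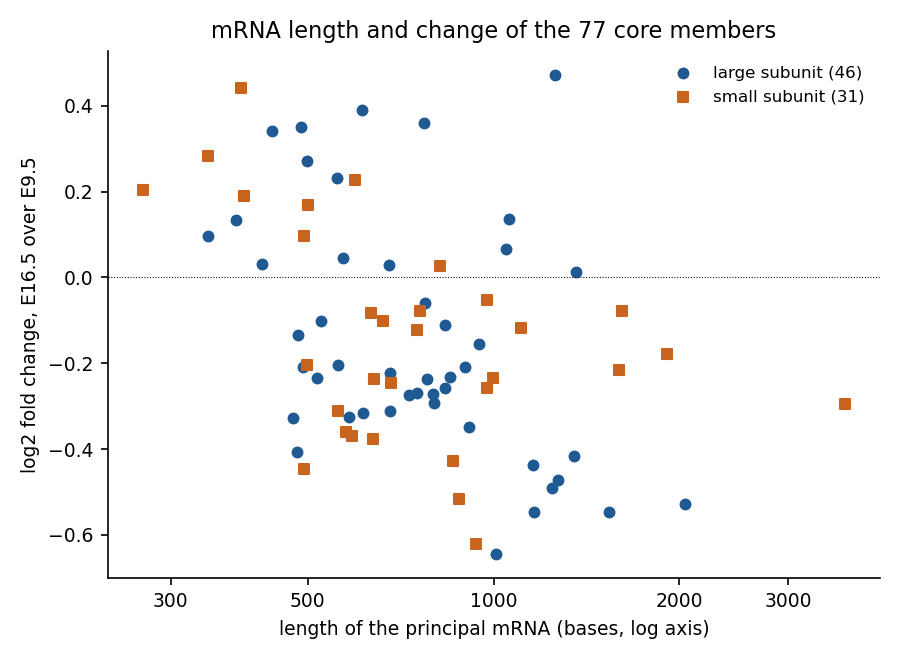
log2 fold change of E16.5 over E9.5 (vertical axis) against length of the principal mRNA in bases (horizontal axis, log scale) for the 77 core members; circles are large subunit and squares small subunit genes. The 38 members shorter than 729 bases have a median of -0.10 and the 39 others of -0.24, and Rps20, at 3706 bases, is the longest.

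Of the paralogues, Rpl3l had the largest change, from a very low level. It held 69, 61, 59 and 54 counts in the E16.5 libraries, against 24, 18 and 20 in the E9.5 libraries. In CPM these were 2.21, 1.81, 1.82 and 1.76 in E16.5 hearts and 0.724, 0.584 and 0.664 in E9.5 hearts. All E16.5 libraries lay above those of every other stage (log2 fold change 1.52 ± 0.25 (SE), edgeR adjusted p = 2.70e-05). It had the smallest p of all members in the test over stages. Rpl3l made up 0.0511 ± 0.00504% of the counts of the pair with Rpl3 in E9.5 hearts (SD, n = 3), 0.0430 ± 0.00853% in E10.5 hearts (n = 4), 0.0560 ± 0.0117% in E12.5 hearts (n = 4), 0.0964 ± 0.0276% in E14.5 hearts (n = 3) and 0.198 ± 0.0284% in E16.5 hearts (n = 4). Rpl3 itself had 941, 915, 931 and 1065 CPM in E16.5 hearts, against 1309, 1282 and 1263 CPM in E9.5 hearts. The log2 ratio of Rpl3l over Rpl3 was 1.93 higher at E16.5 than at E9.5, with p = 0.0571 by an exact two-sided permutation test, the smallest that 4 against 3 libraries allow.

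Ratios of 6 pairs were tested in 5 comparisons, and none of the 30 exact permutation tests passed after adjustment (lowest adjusted p 0.156). Before adjustment, 4 against 3 libraries cannot go below 0.0571 and 4 against 4 cannot go below 0.0286. None of the 30 could therefore have passed after adjustment, whatever the ratios. Rps27l, known as a target of p53, made up 27.5 ± 0.585% of the Rps27 pair in E9.5 hearts, 27.2 ± 0.940% in E10.5 hearts, 21.7 ± 1.69% in E12.5 hearts, 20.1 ± 4.08% in E14.5 hearts and 20.2 ± 0.790% in E16.5 hearts. The libraries of E16.5 (19.5 to 21.2%) and of E9.5 (26.8 to 27.9%) did not overlap. Every library from E12.5 on (at most 24.8%) lay below every earlier library (at least 26.1%). Rps27l itself had a log2 fold change of -0.31 ± 0.13 (SE; edgeR adjusted p = 0.0527), which did not pass. With a term for the 5 libraries low in macrophage-type transcripts it was -0.51 (edgeR adjusted p = 0.000301). It also passed with library totals and on leaving out E9.5 replicate 2 or 3 or E16.5 replicate 4 (-0.40 to -0.36).

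Rpl22l1 had 86.1, 72.4, 73.3 and 89.9 CPM in E16.5 hearts, against 157, 89.6 and 89.0 CPM in E9.5 hearts. The highest library by far was E9.5 replicate 1, and the stages overlapped. Its fall (log2 fold change -0.48 ± 0.16 (SE), edgeR adjusted p = 0.0165) was -0.14 without that library (edgeR adjusted p = 0.284). The call was also lost with no filter on low counts and with these stages alone in the model. It made up 25.3 ± 4.52% of the Rpl22 pair in E9.5 hearts, 27.9 ± 0.710% in E10.5 hearts, 26.2 ± 0.691% in E12.5 hearts, 23.8 ± 1.25% in E14.5 hearts and 23.9 ± 1.43% in E16.5 hearts. Rpl36al kept 40.8 to 44.3% of its pair with Rpl36a over the stage means, and its level did not differ by the test (0.00 ± 0.19, log2 ± SE). Of its exon bases, 24.5% overlap Gm49383 on the same strand.

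Rpl7l1 fell between E16.5 and E9.5 as Rpl7 did. It had 126, 108, 119 and 122 CPM in E16.5 hearts, against 158, 161 and 162 CPM in E9.5 hearts (log2 fold change -0.44 ± 0.06 (SE), edgeR adjusted p = 5.21e-06). The stages did not overlap, and its share of the pair was 17.9 ± 0.117% at E16.5 and 16.8 ± 0.771% at E9.5. Rps27rt, a retrogene copy of Rps27, had 52 to 218 counts per library and a log2 fold change of 0.15 ± 0.32 (SE), which became 0.79 without E9.5 replicate 1 (edgeR adjusted p = 0.0232). Rpl10l had 0 to 3 counts and Rpl39l 0 to 13 counts per library, too few to test. Rps4l, annotated as a transcribed pseudogene and therefore not a member, made up 7.44 to 10.4% of the counts of its pair with Rps4x. Rps19bp1 had a log2 fold change of -0.12 ± 0.15 (SE) and did not pass; against the 1 E9.5 library high in macrophage-type transcripts it was -0.40 (edgeR adjusted p = 0.0190).

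**Figure D5:**
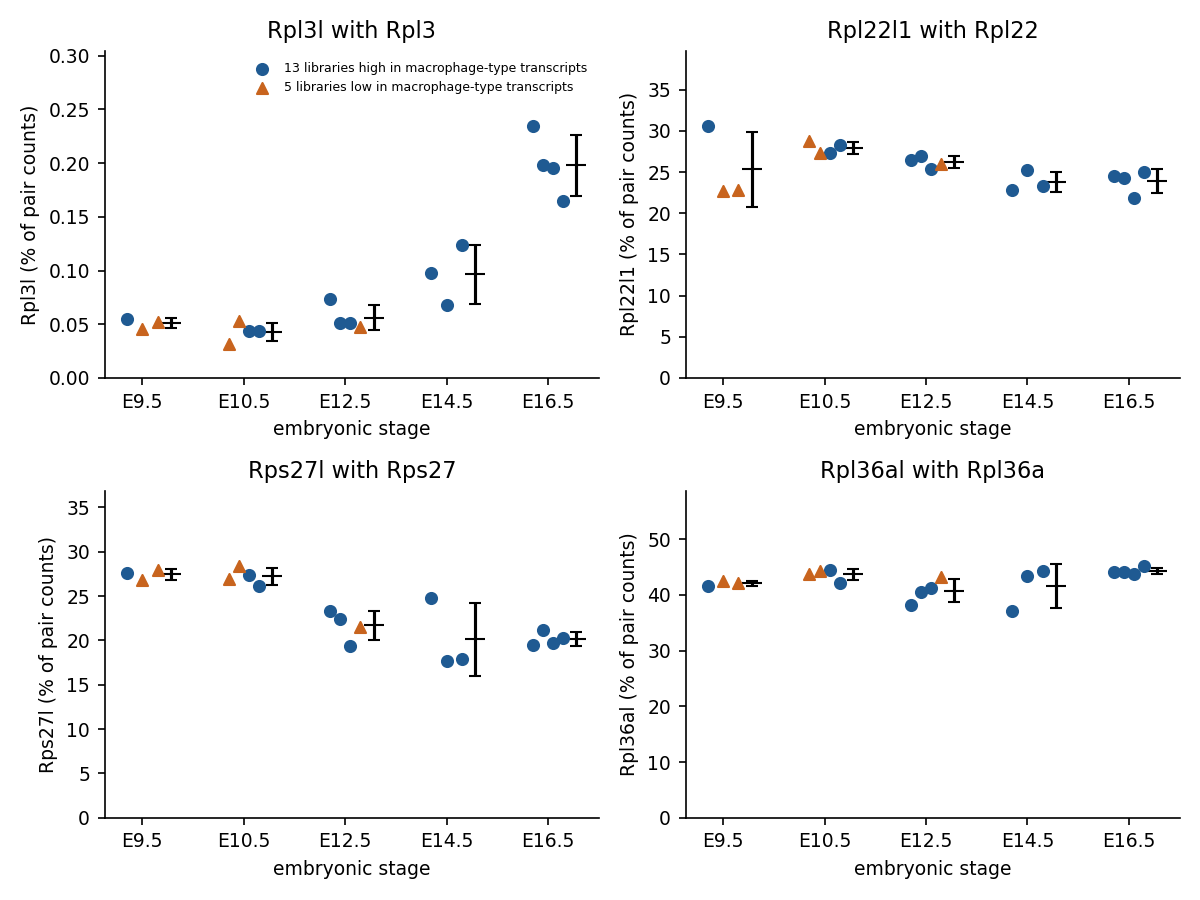
Share of the counts of a pair that fell on the paralogue (vertical axes, percent, from 0) by embryonic stage (horizontal axes), for Rpl3l with Rpl3, Rpl22l1 with Rpl22, Rps27l with Rps27 and Rpl36al with Rpl36a; points are libraries, marked as in the plot of summed shares, and bars give the stage mean ± SD. Rpl3l lies between 0.165 and 0.234% at E16.5, above all earlier libraries, and Rps27l lies at or below 24.8% from E12.5 on and at or above 26.1% before.

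Ribosomal proteins that the symbol rule does not take were read in the same way. Rack1, a scaffold on the small subunit, fell (log2 fold change -0.23 ± 0.10 (SE), edgeR adjusted p = 0.0429), a call that was lost on leaving out each of the E9.5 libraries in turn or E16.5 replicate 1, 2 or 3, and with RLE scaling, DESeq2 or no filter. Fau, whose ubiquitin-like part is joined to a small subunit protein, had -0.16 ± 0.16 (SE) and did not pass.

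Genes that assemble ribosomes were read from the same model. Between E16.5 and E9.5, 21 of the 22 on the biogenesis list fell, with a median log2 fold change of -1.08, against -0.21 for core members and -0.01 for all genes, of which 32.8% fell. Npm1, a nucleolar chaperone, had -1.73 ± 0.09, Polr1b, a subunit of RNA polymerase I, -1.37 ± 0.09, and Ubtf, its activator at ribosomal DNA, -0.22 ± 0.06 (log2 ± SE). Nop10 (0.31 ± 0.20) did not pass. Their falls were 15 of 22 between E10.5 and E9.5 (7.62% of all genes fell), 20 between E12.5 and E10.5 (18.1%), 10 between E14.5 and E12.5 (8.55%) and 3 between E16.5 and E14.5 (8.74%).

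Other genes whose mRNAs are known to carry a TOP tract were read as well. Of 13 translation factors and partners, 7 fell, 1 rose and 5 did not pass between E16.5 and E9.5, with a median of -0.28, against 32.8% of all genes lower, 32.1% higher and 64.9% in either direction. Nap1l1, a histone chaperone, had -1.50 ± 0.07, Eef1g, of the elongation factor 1 complex, -0.78 ± 0.07, and Tpt1, the tumour protein that rose, 0.43 ± 0.11 (log2 ± SE). Eef2, the translocation factor, had 0.08 ± 0.09 and did not pass. Of 9 genes linked to control of such mRNAs, 6 fell, 1 rose and 2 did not pass. Larp1, which binds the TOP tract, had -0.95 ± 0.07, and Eif4ebp1, an inhibitor of cap-dependent initiation, rose by 0.77 ± 0.12 (log2 ± SE). Of the Myc family, Mycn (-1.51 ± 0.09) and Max (-0.26 ± 0.06) fell, and Myc (0.14 ± 0.12) did not pass. All values are from the same edgeR model.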

How the data were processed

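RNA sequencing counts per Ensembl gene, unnormalized whole numbers, were deposited for all 18 libraries. Per the submitters' processing notes, the tools were featureCounts, STAR 2.5.2b, Subread 1.5.2 and Trimmomatic 0.36, and the builds mm10 and GRCm38. Neither strand setting nor annotation release was given in the sources used here. Names, exon overlap and mRNA lengths (the shortest principal transcript) were taken from GENCODE M21, and promoter sequences from RefSeq. Identifiers without a symbol held 0.0238 to 0.0388% of counts. The members and gene lists were chosen with earlier results of these data known.

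Genes were tested with edgeR 4.0.16 (R 4.3.3): filterByExpr by stage, TMM, and a robust quasi-likelihood model with stage as the only term over all libraries. The threshold was an adjusted p (Benjamini-Hochberg, over the 18885 genes tested) under 0.05. The fits were checked on simulated counts with the same dispersion for all genes and no structure among the libraries of a stage. That check says little about changes as small as those of most members. Summed shares and pair ratios, with 0.5 added to each count, were tested by exact two-sided permutation. No 2 libraries of a stage agreed within sampling noise (chi-square over degrees of freedom 6.06 to 79.8 in 24 pairs). A count of 0 allows up to 3 counts, which is 0.0657 to 0.0976 CPM; such limits cover counting error only.

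Members were named by rule: the 3 with the smallest p in each direction per comparison, all paralogues, the 3 highest and 3 lowest per kilobase, and the one with the smallest p over the stages, with Fau and Rack1; some results that this rule gives are not reported here. Others were named after their values were seen. Pseudogene copies may take reads of members: 56 members have named pseudogenes, and the 270 pseudogene rows held 0.0193 to 0.0274% of counts. Exons of 18 members overlap other genes over more than 5% of their bases, Rpl23a (59.7%), Rpl13a (29.4%) and Rpl31 (25.3%) among them. Alternatives were RLE and library-total scaling, members left out of the scaling, no filter, a replicate block, a term for the 5 libraries or fits within each set, the compared stages alone, limma-voom 3.58.1, DESeq2 1.42.0, and each library left out.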

Additional observations from a re-analysis of the deposited data

Results flagged for a closer look

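Values were examined in 126 groups of 4 libraries, and 6 stood far from the others of their stage, with a gap of more than 0.829 of the range of the group; chance gives about 1 in 20 groups. At E12.5, replicate 3 had 451 CPM of Rps23 against 329 to 349 CPM in the others, and 815 CPM of Rpl28 against 530.2 to 560.4 CPM. That library was the highest of its stage for all 77 core members. At E12.5 replicate 1, the log2 ratio of Rpl3l over Rpl3 was -10.38, against -10.99 to -10.89. At E10.5 replicate 1, Rpl7l1 had 152 CPM against 142 to 143 CPM. At E16.5, Rpl3 had 1065 CPM in replicate 4 against 915 to 941 CPM, and Rpl3l had 2.21 CPM in replicate 1 against 1.76 to 1.82 CPM.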

How the results depend on the processing

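The medians of the members' log2 fold changes moved by less than 0.152 (log2), the pooled SD between libraries of a stage, under every alternative. That SD exceeds the medians of 0.05 between E12.5 and E10.5 and 0.12 between E16.5 and E14.5, so the bound is loose. The sign of the median was not fixed between E12.5 and E10.5 (-0.09 to 0.10 with 1 library left out) and between E16.5 and E14.5 (-0.01 with library totals). Counts of members past the threshold moved too. Between E10.5 and E9.5 (2) they were 1 with library totals, 0 with no filter, 10 with the term for the 5 libraries, 45 and 0 within the low and high libraries, 7 with these stages alone and 6 with DESeq2. Between E12.5 and E10.5 (1) they were 5 with library totals, 6 with the term, 8 and 2 within the low and high libraries, 3 with these stages alone, 2 with limma-voom and 2 with DESeq2. Between E14.5 and E12.5 (8) they were 2 with library totals, 24 with the term, 17 within the high libraries and 0 with these stages alone. Over all genes in that comparison 1187 rose and 1614 fell in the main fit, against 1596 and 1945 with the term. With library totals these were 1701 and 1021. Within the high libraries they were 1453 and 1563 of 19907 genes, and with these stages alone 1357 and 1235 of 17943. Between E16.5 and E9.5 (30) the term gave 48, and over all stages (31) it gave 50. Over all genes the term gave 5913 rises and 5877 falls between E16.5 and E9.5, against 6069 and 6186 in the main fit. Over all stages it gave 13643 genes, against 13548. Between E10.5 and E9.5 it gave 2658 rises and 2085 falls, against 2007 and 1439. Between E12.5 and E10.5 it gave 4045 and 3561, against 3772 and 3409. With 1 library left out the counts ran from 0 to 4, 1 to 9, 2 to 10, 1 to 5 and 24 to 35 in the order of the comparisons. Fits within the high libraries have 1 E9.5 library and those within the low libraries 1 E12.5 library. The cause of these moves was not tested. For Rpl24 between E16.5 and E9.5, the log2 fold change of 0.03 was -0.29 with the term and -0.50 within the high libraries, the 2 reversals among the named members. The summed share differed by -1.02 instead of -0.62 percentage points between E16.5 and E9.5 within the high libraries.

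Same-numbered libraries did not deviate together more than others (correlations -0.64 to 0.50 over 33 pairs, against -0.64 to 0.66 over 96 pairs of unlike number). The split into libraries high and low in macrophage-type transcripts was left in these deviations, so a weaker pairing might not show. A replicate block gave 4, 5 and 1 members past the threshold between E10.5 and E9.5, between E14.5 and E12.5 and between E16.5 and E14.5, against 2, 8 and 2 without it. In the blocked fit these were 4.76% lower, 5.95% lower and 1.19% higher. Of all genes, 7.3, 7.29 and 8.83% passed in the same directions. With the block, Rpl19 between E16.5 and E14.5 had a log2 fold change of 0.30 and did not pass (edgeR adjusted p = 0.0544). Depth limits Rpl3l, Rpl10l and Rpl39l, with at most 69, 3 and 13 counts in a library.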

Other observations

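Small nucleolar RNA genes lie inside 30 of the 86 members, with 4 inside Rpl13a and 5 inside Rpl4. The members lie on 19 chromosomes, with 14 on chromosome 7 and 4 on X. The 270 pseudogene rows whose symbols match the rule held 0.0274% of counts in E9.5 replicate 1, the highest of the 18 libraries, and 0.0193% in E10.5 replicate 2, the lowest.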
